A study of Mus musculus with 18 samples.

Results

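Glucocorticoid signalling in the liver was followed through 10 named genes: the carrier of the hormone in blood (*Serpina6*), the enzyme that regenerates it in the cell (*Hsd11b1*), its receptor (*Nr3c1*) and genes known as targets of that receptor (*Fkbp5*, *Tsc22d3*, *Klf9*, *Sgk1*, *Dusp1*, *Cebpb* and *Cebpd*). The genes were chosen by name, and their symbols were mapped to the Ensembl identifiers of the count files, which list 22524 genes. Of the 10 genes, 9 were found and analysed, and *Cebpd* was not analysed here. RNA was sequenced from the livers of 10 A226Y mice and 8 wild-type (WT) mice, with 1 library per mouse. The A226Y mice were heterozygous for a knock-in allele of *Rps2*, a gene of the small ribosomal subunit, in which a floxed stop cassette precedes the exon with the A226Y change. Their line came from a cross with CMV-Cre mice. The WT mice expressed Cre recombinase, and the sources used here do not state whether each A226Y mouse still carried the transgene. All mice were females of the C57BL/6 background aged 15 months, and the allele had been made in 129/Sv embryonic stem cells and backcrossed. CMV-Cre is expressed ubiquitously, but excision of the cassette was incomplete, so A226Y livers are mosaics that keep cells with a single working *Rps2* copy, and an effect of that loss cannot be told apart from an effect of the mutant protein in these 2 groups.

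Glucocorticoids (corticosterone in mice) are released by the adrenal gland in daily pulses and under stress. In blood most of the hormone is bound to corticosteroid-binding globulin, a serpin that the hepatocyte makes from *Serpina6*. In the hepatocyte, the enzyme encoded by *Hsd11b1* converts inactive 11-dehydrocorticosterone to corticosterone, which binds the glucocorticoid receptor. The receptor then leaves its chaperone complex, enters the nucleus and switches on genes that include feedback inhibitors (*Fkbp5*), mediators of the anti-inflammatory response (*Tsc22d3*, *Dusp1*), transcription factors (*Klf9*, *Cebpb*, *Cebpd*), a kinase (*Sgk1*) and enzymes of gluconeogenesis and amino acid breakdown.

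The promoters of the 2 target genes that differed between the genotypes, *Klf9* and *Sgk1*, are shown with one of *Tsc22d3*, since the receptor acts on such sequences. RefSeq promoters (GRCm38.p6) were found for 7 of the 9 genes, which have 14 annotated starts in all, 6 of them in *Sgk1*. *Serpina6* and *Nr3c1* had no entry. Each sequence is the 250 bases before a start, 5′ to 3′ on the strand of the gene, and the capitals mark matches to the motifs searched. Positions count back from the start, the base before it being −1. The *Klf9* promoter lies at chr19:23140976-23141225 (plus strand), a pair of *Sgk1* promoters (counted from the upstream end, promoters 5 and 6) at chr10:21993640-21993889 and chr10:21994416-21994665 (plus strand), and promoter 2 of *Tsc22d3* at chrX:140600523-140600772 (minus strand).
Klf9: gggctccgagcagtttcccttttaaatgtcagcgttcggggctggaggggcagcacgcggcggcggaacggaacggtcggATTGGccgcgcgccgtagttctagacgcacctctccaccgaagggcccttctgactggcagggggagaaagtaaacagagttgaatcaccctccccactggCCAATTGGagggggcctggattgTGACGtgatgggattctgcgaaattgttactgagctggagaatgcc
Sgk1, promoter 5: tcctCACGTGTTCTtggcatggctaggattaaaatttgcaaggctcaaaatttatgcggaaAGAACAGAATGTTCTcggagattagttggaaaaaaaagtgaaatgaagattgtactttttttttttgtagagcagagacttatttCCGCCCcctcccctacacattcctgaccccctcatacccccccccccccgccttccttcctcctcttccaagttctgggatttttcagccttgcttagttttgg
Sgk1, promoter 6: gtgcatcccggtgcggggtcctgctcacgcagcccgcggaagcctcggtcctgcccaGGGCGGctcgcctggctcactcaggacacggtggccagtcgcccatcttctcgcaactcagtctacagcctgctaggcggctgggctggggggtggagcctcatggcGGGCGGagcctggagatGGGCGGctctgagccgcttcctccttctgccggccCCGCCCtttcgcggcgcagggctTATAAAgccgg
Tsc22d3, promoter 2: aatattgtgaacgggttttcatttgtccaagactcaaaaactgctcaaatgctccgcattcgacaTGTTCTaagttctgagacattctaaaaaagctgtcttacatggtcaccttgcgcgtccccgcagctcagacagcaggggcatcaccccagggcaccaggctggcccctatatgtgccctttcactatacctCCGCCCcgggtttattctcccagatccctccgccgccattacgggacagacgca

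The motifs were searched on both strands and may overlap. The half-site of the glucocorticoid receptor, AGAACA, was present in 4 of the 14 promoters (28.6%), against 16.1% of 32851 RefSeq promoters of the same length. Of these 4, 3 are alternative starts of *Sgk1* (promoters 1, 4 and 5) and 1 is of *Tsc22d3*, so 2 of the 7 genes held it. A half-site and its inverted copy, with a short spacer of any letters (N) between them, give the receptor's palindrome, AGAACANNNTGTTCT. It was found in 1 of the 14 promoters, promoter 5 of *Sgk1*, from −189 to −175, and in 3 of all 32851 promoters (0.00913%). Both half-sites inside the palindrome are counted as half-sites as well, and a further half-site of the same promoter, from −242 to −237, overlaps an E-box (CACGTG) that ends at −241. Promoter 2 of *Tsc22d3* held a half-site from −185 to −180. The *Klf9* promoter held no half-site, but had a CRE half-site (TGACG) from −46 to −42 and 3 CCAAT boxes (CCAAT), of which those at −69 to −65 and −66 to −62 overlap. Promoter 6 of *Sgk1* held 4 GC boxes (GGGCGG) and a TATA box (TATAAA). CRE half-sites were in 5 of the 14 promoters (17.8% of all RefSeq promoters), GC boxes in 7 (32.7%), CCAAT boxes in 5 (33.8%), E-boxes in 3 (6.02%) and TATA boxes in 2 (12.4%). A palindrome bound by C/EBP factors (TTGCGCAA), a D-box (TTATGTAA) and a half-site of HNF1 (GTTAAT) were in none of the 14, and in 0.164%, 0.819% and 6.43% of all promoters.

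The libraries held between 23850565 and 62126131 counts in the A226Y mice (median 32058379) and between 25869192 and 34918732 in the WT mice (median 31702989). Levels are given as CPM, which are counts relative to the size of the library after TMM scaling. Differences were tested with the quasi-likelihood test of edgeR over 13353 genes, with p-values adjusted by the Benjamini-Hochberg method over all of them, and a gene was called at an adjusted p-value under 0.05. By this rule 14.3% of the tested genes were called, 7.27% higher and 7.03% lower in the A226Y mice. *Rps2* itself was lower in every A226Y mouse (46.9 to 83.0 CPM) than in any WT mouse (104 to 143 CPM), which fits the labels. A pair of libraries stood apart from the others and are marked in the plots. They are A226Y animal 29, which had the highest summed expression of acute phase genes and of Kupffer and macrophage markers in its group, and WT animal 33, which led its own group for both lists. Nothing in the labels says whether each mouse came from its own litter or cage. The p-values set the difference between the genotypes against the spread between these mice, taken as independent. They could be too small if mice of a genotype shared litters or cages.

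Of the 9 genes, 3 were called: *Serpina6* was lower, and *Klf9* and *Sgk1* were higher, in the A226Y mice. The same 3 had an unadjusted p-value under 0.05. Their share can be set against the 14.3% of all tested genes, and 3 genes are too few for more than a description. The median log2 fold change of the 9 genes was −0.09, and that of all tested genes was −0.00443. No gene of the 9 had CPM values that separated the genotypes without overlap, which 0.637% of all tested genes did. With 4 surrogate variables as covariates, which are patterns estimated from the whole expression table and not given by the labels, 0 of the 9 genes were called by edgeR (1 had an unadjusted p-value under 0.05), and 0.374% of all tested genes were. DESeq2 and limma-voom, without these variables, called the same number of the 9 genes as edgeR, 3.

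**Figure D1:**
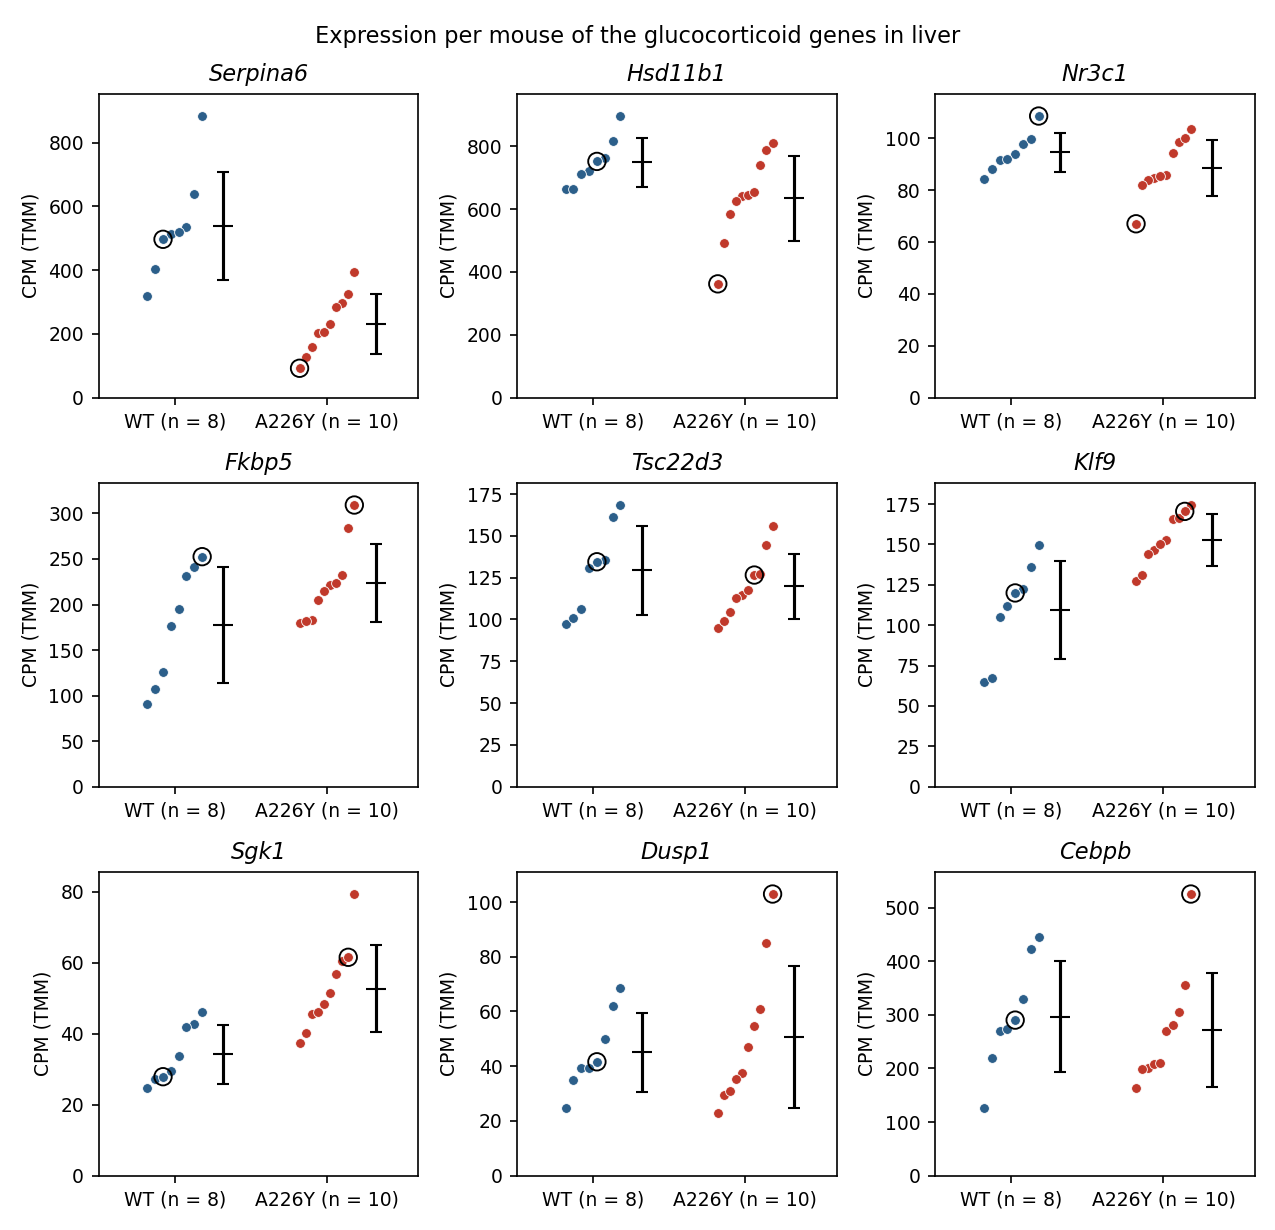
CPM (TMM-scaled, linear axes from 0) of the 9 genes in each of 8 WT mice (blue) and 10 A226Y mice (red), with the mean and SD of each group in black beside the points. Circles mark A226Y animal 29 and WT animal 33. *Serpina6* lies between 92.3 and 395 CPM in the A226Y mice and between 319 and 884 CPM in the WT mice, and *Klf9* and *Sgk1* are shifted upwards in the A226Y mice.

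*Serpina6* (ENSMUSG00000060807, chromosome 12, 103646630 to 103657212 on GRCm38, minus strand) showed the largest difference of the 9 genes. Its expression in the A226Y mice ranged from 92.3 CPM in animal 29 to 395 CPM in animal 3, with a median of 220 CPM. In the WT mice it ranged from 319 CPM in animal 4 to 884 CPM in animal 21, with a median of 515 CPM. The mean of WT lay above each of the 10 A226Y mice, of which 8 fell short of the lowest WT mouse, and 7 of the 8 WT mice exceeded the highest A226Y mouse. The genotypes averaged 232 ± 94.1 CPM (SD, n = 10) and 538 ± 169 CPM (SD, n = 8), or −1.21 ± 0.24 as a log2 fold change ± SE (adjusted p = 0.00349, edgeR). This is a level 0.431 times that of WT, with a 95% interval of 0.313 to 0.594 (from the standard error and the normal distribution). A two-sided exact permutation test over all 43758 ways to divide the mice gave p = 0.000229. The difference was called with each mouse left out in turn, with log2 fold changes between −1.33 and −1.08. In whole liver, fewer cells of a type and less RNA per cell cannot be told apart. With the surrogate variables the log2 fold change of *Serpina6* was −0.68 (adjusted p = 0.0848 in edgeR).

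*Serpina6* belongs to a cluster of serpin genes, and the genes within 250 kb of it were also lower in part. Of 11 tested neighbours, 4 were called lower and 0 higher, where 7.03% of all tested genes were called lower. They were *Ifi27*, an interferon-inducible gene (log2 fold change −0.78, adjusted p = 0.00688 in edgeR), *Serpina10*, the inhibitor of coagulation factors known as protein Z-dependent protease inhibitor (−0.59, adjusted p = 0.0215 in edgeR), and a pair of α1-antitrypsin genes, *Serpina1c* (−0.42, adjusted p = 0.0164 in edgeR) and *Serpina1a* (−0.30, adjusted p = 0.0358 in edgeR). These 4 genes were named after their values were seen. The α1-antitrypsin genes are near-identical copies, so their counts are uncertain. Each of the 4 differences was smaller than that of *Serpina6*.

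*Hsd11b1* (ENSMUSG00000016194, chromosome 1, 193221634 to 193264075, minus strand) did not pass the test. The A226Y mice ranged from 362 CPM in animal 29 to 810 CPM in animal 5 (median 642 CPM), and the WT mice from 664 to 896 CPM (median 736 CPM). Of the 10 A226Y mice, 7 lay below every WT mouse, while the other 3 lay within the WT range. The means were 634 ± 135 CPM (SD, n = 10) and 748 ± 78.2 CPM (SD, n = 8), which is a log2 fold change ± SE of −0.24 ± 0.12 (adjusted p = 0.19, edgeR). The exact permutation test of this gene alone, which is not adjusted for the number of genes examined, gave p = 0.0467, and without scaling beyond the library size it gave p = 0.0958.

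*Nr3c1* (ENSMUSG00000024431, chromosome 18, 39410545 to 39519421, minus strand), the gene of the receptor, had the narrowest spread of the 9 genes in the WT mice, with a coefficient of variation of 7.94%. It ranged from 67.1 CPM in animal 29 to 104 CPM in animal 3 among the A226Y mice (median 85.7 CPM) and from 84.3 to 109 CPM among the WT mice (median 93.0 CPM). Of the 10 A226Y mice, 3 lay below every WT mouse, and 1 WT mouse lay above every A226Y mouse. The means of 88.6 ± 10.8 CPM (SD, n = 10) and 94.6 ± 7.51 CPM (SD, n = 8) gave a log2 fold change ± SE of −0.09 ± 0.07 (adjusted p = 0.415, edgeR). The 95% interval of the A226Y to WT ratio ran from 0.847 to 1.04. The single tested neighbour within 250 kb, *Arhgap26*, had a log2 fold change of −0.53 (adjusted p = 0.0717 in edgeR) and was named after its value was seen.

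*Sgk1* (ENSMUSG00000019970, chromosome 10, 21882184 to 21999903, plus strand) encodes a kinase of ion transport and cell survival that is induced rapidly by glucocorticoids and mineralocorticoids. Its expression in the A226Y mice ranged from 37.3 CPM in animal 3 to 79.3 CPM in animal 18 (median 49.9 CPM), and in the WT mice from 24.6 CPM in animal 14 to 46.1 CPM in animal 6 (median 31.5 CPM). Every one of the 10 A226Y mice exceeded the mean of WT, and 6 exceeded all WT mice. The means were 52.7 ± 12.4 CPM (SD, n = 10) and 34.2 ± 8.25 CPM (SD, n = 8), or 0.62 ± 0.15 as a log2 fold change ± SE (adjusted p = 0.00935, edgeR). The level was 1.54 times that of WT (95% interval 1.26 to 1.88; exact permutation test, p = 0.00135). It was called with each mouse left out in turn, at log2 fold changes of 0.54 to 0.70. With the surrogate variables it was 0.37 (adjusted p = 0.368 in edgeR).

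*Klf9* (ENSMUSG00000033863, chromosome 19, 23141226 to 23168134, plus strand) encodes a Krüppel-like transcription factor that the receptor induces in many tissues and that itself acts on further target genes. The A226Y mice held a narrow range, from 128 to 174 CPM (median 151 CPM), whereas the WT mice ran from 64.7 CPM in animal 14 and 67.0 CPM in animal 21 up to 150 CPM in animal 6 (median 116 CPM). Again 10 of 10 A226Y mice exceeded the mean of WT, 6 of them the whole WT range. The coefficient of variation was 10.5% in the A226Y mice and 27.6% in the WT mice, a difference that was not tested. The means were 153 ± 16.1 CPM (SD, n = 10) and 110 ± 30.3 CPM (SD, n = 8), or 0.48 ± 0.14 as a log2 fold change ± SE (adjusted p = 0.0238, edgeR). The level was 1.39 times that of WT (95% interval 1.16 to 1.68; exact permutation test, p = 0.000548). In the 18 fits that each omit 1 mouse it lay between 0.40, without WT animal 14, and 0.56, and the adjusted p-value of edgeR reached 0.046. With the surrogate variables it was 0.21 (adjusted p = 0.558 in edgeR).

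*Fkbp5* (ENSMUSG00000024222, chromosome 17, 28399094 to 28517527, minus strand) encodes a co-chaperone that lowers the affinity of the receptor for its hormone and is widely used as a readout of receptor activity. The A226Y mice ranged from 180 to 309 CPM, the highest being animal 29 (median 218 CPM), and the WT mice from 90.6 CPM in animal 14 to 253 CPM in animal 33 (median 186 CPM). Here too 10 of 10 A226Y mice exceeded the mean of WT, but 2 exceeded the whole WT range. The means of 223 ± 43.1 CPM (SD, n = 10) and 178 ± 63.4 CPM (SD, n = 8) gave a log2 fold change ± SE of 0.33 ± 0.18, which did not pass (adjusted p = 0.229 from edgeR). The 95% interval of the ratio was 0.983 to 1.61. The log2 fold change was −0.08 with the surrogate variables (adjusted p = 0.862 in edgeR). With library size as the only scaling, the exact permutation test of *Fkbp5* gave p = 0.0374, against p = 0.0663 with TMM.

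*Tsc22d3* (ENSMUSG00000031431, chromosome X, 140539528 to 140600659, minus strand), also called GILZ, encodes a leucine zipper protein that carries part of the anti-inflammatory action of the hormone. It ranged from 94.7 to 156 CPM in the A226Y mice (median 116 CPM) and from 97.0 to 168 CPM in the WT mice (median 133 CPM). In *Tsc22d3*, 1 A226Y mouse lay below every WT mouse and 2 WT mice lay above every A226Y mouse. The means were 120 ± 19.5 CPM (SD, n = 10) and 129 ± 26.7 CPM (SD, n = 8), which is a log2 fold change ± SE of −0.11 ± 0.12 (adjusted p = 0.563, edgeR; 95% interval of the ratio 0.791 to 1.09).

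*Dusp1* (ENSMUSG00000024190, chromosome 17, 26505590 to 26562128, minus strand) encodes a phosphatase that switches off MAP kinases. It varied most from mouse to mouse among the 9 genes in the A226Y group, with a coefficient of variation of 51.2%. The A226Y mice ranged from 22.9 CPM in animal 5 to 103 CPM in animal 29 (median 42.3 CPM), and the WT mice from 24.6 to 68.7 CPM (median 40.5 CPM). The means of 50.7 ± 25.9 CPM (SD, n = 10) and 45.1 ± 14.5 CPM (SD, n = 8) gave a log2 fold change ± SE of 0.17 ± 0.26 (adjusted p = 0.706, edgeR). The sign rested on animal 29, without which the log2 fold change of *Dusp1* was −0.0049. *Rps2* lies on the same chromosome, 1.78 Mb from *Dusp1* and 3.68 Mb from *Fkbp5*.

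*Cebpb* (ENSMUSG00000056501, chromosome 2, 167688915 to 167690418, plus strand) is a gene with 1 exon that encodes a transcription factor of the acute phase response and of gluconeogenesis. In the A226Y mice it ranged from 163 CPM in animal 3 to 526 CPM in animal 29 (median 241 CPM), and in the WT mice from 126 CPM in animal 14 to 445 CPM in animal 24 (median 282 CPM). The WT range lay within 126 to 445 CPM and held 9 of the 10 A226Y mice. The means of 272 ± 107 CPM (SD, n = 10) and 297 ± 104 CPM (SD, n = 8) gave a log2 fold change ± SE of −0.13 ± 0.23 (adjusted p = 0.752, edgeR). In the annotation 312 bases of its exon overlap *Tmem189* on the other strand, and the handling of strand is not settled in the sources used here, so the counts of *Cebpb* are uncertain. *Tmem189* had a log2 fold change of 0.22 and did not pass the test (adjusted p = 0.211 in edgeR).

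**Figure D2:**
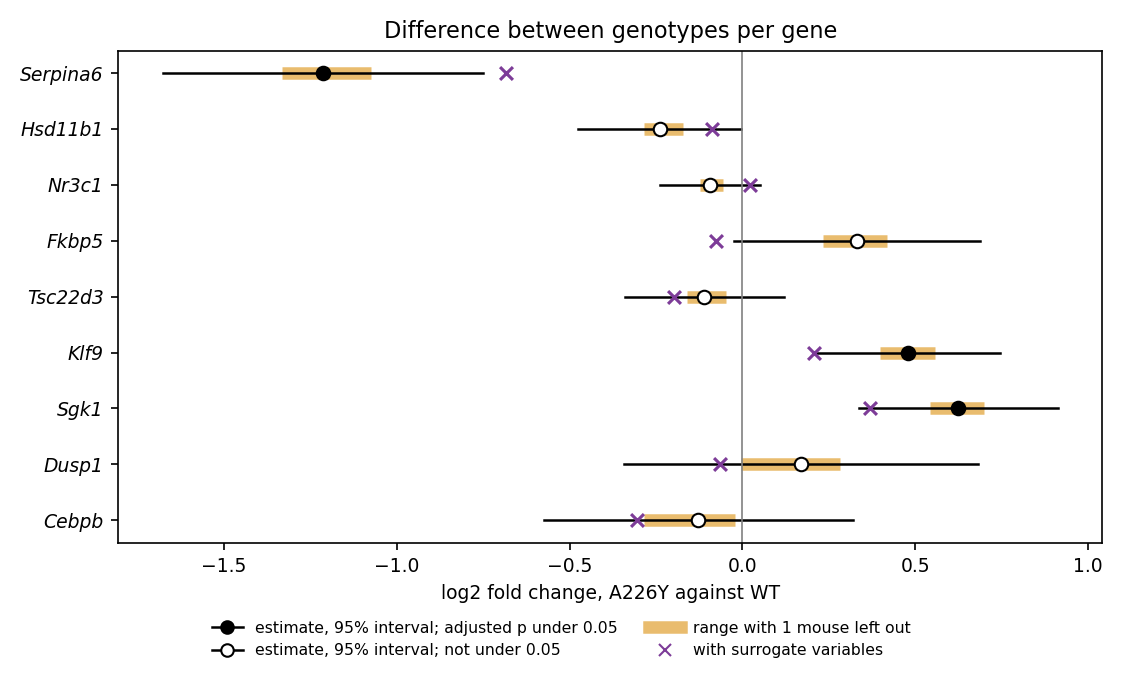
Log2 fold change of the A226Y mice against the WT mice for the 9 genes. Black lines are 95% intervals, filled points passed an adjusted p of 0.05, broad bands are the ranges over 18 fits with 1 mouse left out, and crosses are the values with 4 surrogate variables. *Serpina6* lies at −1.21, *Klf9* at 0.48 and *Sgk1* at 0.62, and their crosses lie nearer to 0 at −0.68, 0.21 and 0.37.

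To compare levels between genes, CPM were divided by the length of the merged exons in kb. In the WT mice the order on this scale was *Serpina6* (306 ± 95.8 CPM per kb, SD, n = 8), *Cebpb* (197 ± 68.9 CPM per kb) and *Hsd11b1* (176 ± 18.4 CPM per kb), followed by the receptor's targets from *Tsc22d3* (29.8 ± 6.15 CPM per kb) to *Dusp1* (13.6 ± 4.38 CPM per kb), then *Nr3c1* (12.3 ± 0.978 CPM per kb) and *Sgk1* (6.97 ± 1.68 CPM per kb). Between neighbours of this order the ranges over mice overlapped, except at 2 steps. The lowest WT value of *Hsd11b1* was 156 CPM per kb and the highest of *Tsc22d3* was 38.8 CPM per kb, and the lowest of *Nr3c1* was 10.96 CPM per kb and the highest of *Sgk1* was 9.4 CPM per kb. In the A226Y mice *Serpina6*, at 132 ± 53.4 CPM per kb (SD, n = 10), came after *Cebpb* (181 ± 71.0 CPM per kb) and *Hsd11b1* (149 ± 31.6 CPM per kb) in the order, and these 3 ranges overlapped. With the length of the longest transcript in place of the merged exons, *Hsd11b1* came first in both genotypes, at 378 CPM per kb in the WT mice and 321 CPM per kb in the A226Y mice, so the order of the top 3 genes depends on the length used.

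**Figure D3:**
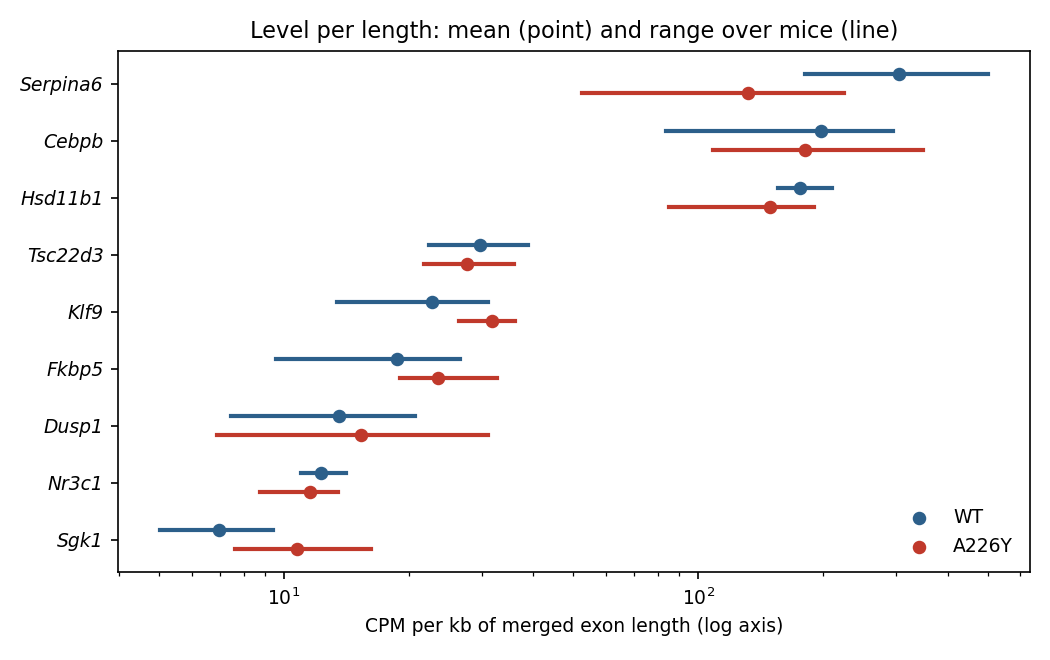
CPM per kb of merged exon length (log axis) of the 9 genes, with the mean as a point and the range over mice as a line, for 8 WT mice (blue) and 10 A226Y mice (red). The hormone-handling genes *Serpina6* and *Hsd11b1*, with *Cebpb*, lie above the other genes, and *Sgk1* in the WT mice, at a mean of 6.97 CPM per kb, is the lowest.

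Whether the genes varied together from mouse to mouse was examined with log2 CPM centred on the mean of each genotype. Over the 36 pairs of the 9 genes and 18 mice, 6 pairs had an adjusted p-value under 0.05 for Pearson's r (permutation of the mice within genotypes, 100000 resamples, Benjamini-Hochberg adjustment over the 36 pairs). The points share their libraries and scaling. The 3 pairs among carrier, enzyme and receptor were positive. *Hsd11b1* and *Serpina6* had r = 0.824 (adjusted p = 0.0036) and Spearman's rho = 0.746 (adjusted p = 0.0164), by permutation. *Nr3c1* had r = 0.813 with *Hsd11b1* (rho = 0.771) and r = 0.748 with *Serpina6* (rho = 0.639), with permutation p-values of r adjusted to 0.00576 and 0.0116 and of rho to 0.0162 and 0.0654. All 3 leaned on the A226Y group, in which r was 0.921, 0.908 and 0.857, against 0.457, 0.39 and 0.41 in the WT group, a difference that was not tested. Without the 2 mice farthest from the median of the first-named gene, r was 0.735 for *Hsd11b1* with *Serpina6*, 0.578 for *Nr3c1* with *Hsd11b1* and 0.516 for *Nr3c1* with *Serpina6*.

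Among the targets, *Dusp1* and *Cebpb* had r = 0.725 (rho = 0.694), with permutation p-values adjusted to 0.00852 and 0.0247, and r was 0.73 within A226Y, 0.78 within WT and 0.667 without the 2 farthest mice. *Fkbp5* and *Klf9* had r = 0.728 (permutation test, adjusted p = 0.0436) and rho = 0.626 (adjusted p = 0.0962), but r was 0.902 in the WT mice and −0.0935 in the A226Y mice, and it dropped to 0.432 without WT animals 14 and 21, in which both genes were low. Without WT animal 33 this pair did not pass (r = 0.731, permutation test, adjusted p = 0.0582). *Fkbp5* ran against the carrier: its r with *Serpina6* was −0.556 (rho = −0.63; permutation p-values adjusted to 0.0361 and 0.0245), with −0.76 in A226Y and −0.56 in WT, and −0.474 without A226Y animals 3 and 29, the 2 mice farthest from the median of *Serpina6*. With A226Y animal 29 left out, none of the 36 pairs passed, although r remained 0.732 for *Hsd11b1* with *Serpina6*, 0.642 for *Nr3c1* with *Hsd11b1*, 0.605 for *Nr3c1* with *Serpina6*, 0.628 for *Dusp1* with *Cebpb*, 0.727 for *Fkbp5* with *Klf9* and −0.489 for *Serpina6* with *Fkbp5*. The lowest adjusted p was then 0.0662. In that animal the summed expression of 18 acute phase genes was 54561 CPM, where the median of the A226Y mice was 15884 CPM. The part of the acute phase genes in these relations was not tested.

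**Figure D4:**
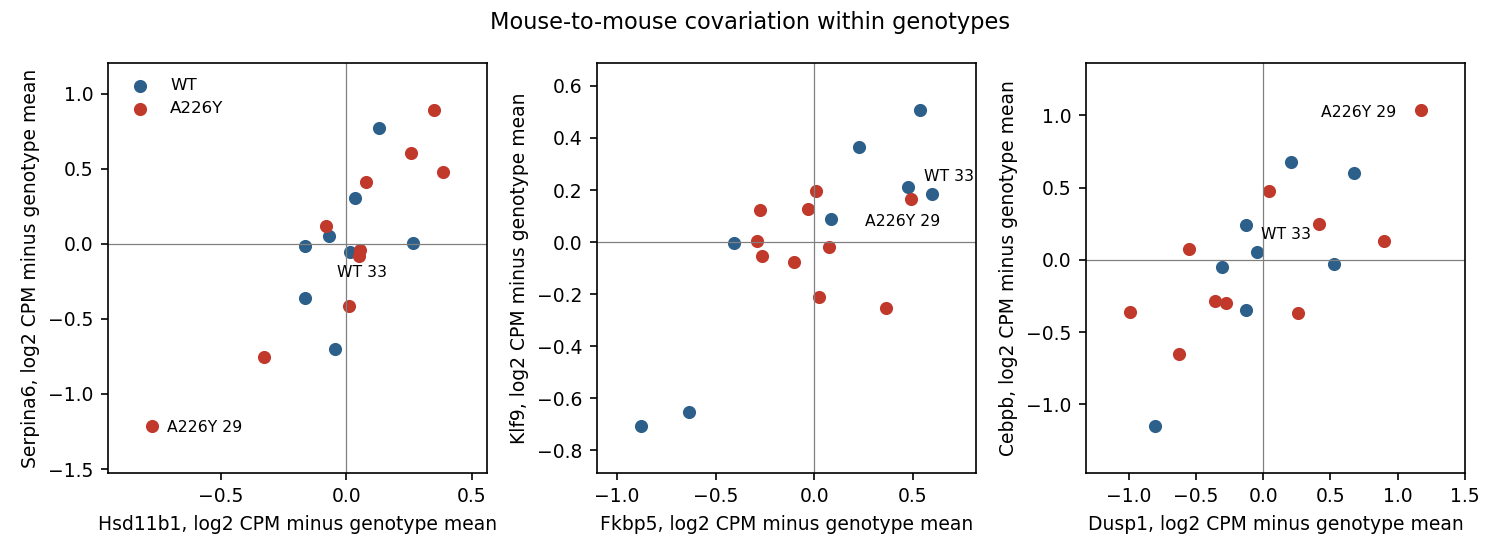
Log2 CPM minus the genotype mean in 18 mice for *Hsd11b1* and *Serpina6* (left), *Fkbp5* and *Klf9* (middle) and *Dusp1* and *Cebpb* (right), with WT mice in blue and A226Y mice in red. A226Y animal 29 lies at an end of the left and right plots, and 2 WT mice lie apart at the lower left of the middle plot.

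For 3 of the genes that did not pass, the genes most alike in their variation over the 18 mice were sought among the 11941 tested genes that averaged 1 CPM or more. *Nr3c1* was most like *Wwp1*, a ubiquitin ligase (r = 0.902), *Stk38*, a kinase (r = 0.878), and *Thrb*, the thyroid hormone receptor of the liver (r = 0.876). *Fkbp5* was most like *Lpin1*, a phosphatidate phosphatase of lipid synthesis (r = 0.897), *Slc38a2*, an amino acid transporter (r = 0.883), and *Wipi1*, an autophagy gene (r = 0.875). *Lpin1* and *Slc38a2* are also in the list of metabolic targets below. *Tsc22d3* was most like *Ddx10* (r = 0.852), *Ccdc25* (r = 0.82) and *Sdc4* (r = 0.801). These values are the highest of many and carry no test.

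Further genes of the pathway were taken from 9 lists, with 138 genes tested, of which 10 were called higher and 10 lower, or 14.5% in all, close to the 14.3% of all tested genes. The list of metabolic targets holds enzymes and regulators of gluconeogenesis, amino acid breakdown and fuel use. Of its 22 tested genes, 5 were called higher and 1 lower (27.3% in all, against 14.3% of all tested genes), and its median log2 fold change was 0.30. *Igfbp1*, a secreted binding protein of insulin-like growth factors, had the largest increase, from 51.5 ± 25.7 CPM in WT (SD, n = 8) to 165 ± 192 CPM in A226Y (SD, n = 10), with a log2 fold change of 1.68 (adjusted p = 0.0283 from edgeR). The A226Y mice ranged from 42.9 to 685 CPM, the highest being animal 29, around a median of 93.8 CPM. Without animal 29 the log2 fold change of *Igfbp1* was 1.05 (adjusted p = 0.0384 in edgeR), and without animals 29 and 33 it was 1.21 (adjusted p = 0.0238 in edgeR). *Tat*, the first enzyme of tyrosine breakdown and a classic target of the receptor, rose from 1669 ± 522 to 3014 ± 1435 CPM (log2 fold change 0.85, adjusted p = 0.0331 from edgeR), and *Tdo2*, which opens tryptophan breakdown, from 1661 ± 382 to 2432 ± 232 CPM (0.55, adjusted p = 0.00556). *Ppargc1a*, a coactivator of gluconeogenic genes, rose from 13.3 ± 3.27 to 22.2 ± 5.65 CPM (0.74, adjusted p = 0.00539 from edgeR). The remaining gene called higher was *Slc38a2* (0.48, adjusted p = 0.0489 from edgeR), and the gene called lower was *Ppp1r3b*, a glycogen-targeting subunit of protein phosphatase (−0.43, adjusted p = 0.0483 from edgeR), which was named after its value was seen. *Pck1*, the gene of the committing enzyme of gluconeogenesis, was also looked up after the list was counted, and did not pass (log2 fold change 0.28, adjusted p = 0.0953 from edgeR).

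The count of metabolic targets depended on single mice, as did the count over all genes. The number called higher fell to 2 without WT animal 14 or WT animal 24 and to 3 without A226Y animal 7, A226Y animal 32, WT animal 21 or WT animal 33, and rose to 8 without WT animal 6. The share of all tested genes called was 9.42% without WT animal 14, 9.83% without WT animal 24, between 10.5% and 13.5% in the fits with 3, and 18.8% without WT animal 6. *Tdo2* and *Ppargc1a* were called with any 1 mouse left out. *Tat* was lost without A226Y animals 7 or 32 or WT animals 14, 21, 24 or 33 (highest adjusted p = 0.0693 in edgeR), and *Igfbp1* without WT animals 13, 14 or 24 (highest adjusted p = 0.0598 in edgeR). *Slc38a2* and *Ppp1r3b* were each called in 3 of the 18 fits, those without A226Y animal 15 or WT animals 6 or 13 and those without A226Y animal 22 or WT animals 4 or 6. *Slc38a2* was also lost with the offsets for GC content and gene length, with upper-quartile scaling, in the robust fit and with no filter on low counts, and *Ppp1r3b* with RLE size factors, with library size alone as scaling and with no filter. With both libraries that stand apart left out, 4 metabolic targets were called higher and 2 lower, where 17.8% of all tested genes were called. Only 3 of these 6 were called with all mice, *Tdo2*, *Ppargc1a* and *Igfbp1*. *Tat* (0.67, adjusted p = 0.0645 in edgeR), *Slc38a2* (adjusted p = 0.0606) and *Ppp1r3b* (adjusted p = 0.0733) were lost, and the hepatokine *Fgf21* (0.84, adjusted p = 0.0493 in edgeR) was called higher and the metallothioneins *Mt1* and *Mt2* (−0.98 and −0.88, adjusted p = 0.0128 and 0.0284 in edgeR) lower, 3 genes named after their values were seen. With the surrogate variables 0 were called by edgeR (1 had an unadjusted p-value under 0.05), the log2 fold changes of *Tat*, *Tdo2*, *Igfbp1* and *Ppargc1a* being −0.04, 0.25, 0.42 and 0.19.

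Of 24 targets of the receptor found across tissues, 2 were called higher and 2 lower (16.7%, near the 14.3% of all tested genes), with a median log2 fold change of 0.08. *Cdkn1a*, the cell cycle inhibitor p21, had 32.4 ± 37.7 CPM in A226Y and 12.3 ± 5.77 CPM in WT (log2 fold change 1.40, adjusted p = 0.0457 from edgeR). It was called in 4 of the 18 fits with 1 mouse left out, those without A226Y animals 3, 5, 15 or 23, and was lost in limma-voom, in the robust fit of edgeR and with no filter on low counts. Its log2 fold change was 0.75 without animal 29 (adjusted p = 0.0654 in edgeR) and 0.82 without animals 29 and 33 (adjusted p = 0.058 in edgeR). *Fam107a*, which lies near the detection limit at 1.13 CPM in A226Y and 0.447 CPM in WT, was the other gene higher (1.35, adjusted p = 0.0056 from edgeR) and was named after its value was seen. The genes called lower were *Gadd45a*, a stress sensor of DNA damage (−0.77, adjusted p = 0.0142 from edgeR), and *Cited2*, a transcriptional coregulator (−0.36, adjusted p = 0.0417 from edgeR, lost without A226Y animals 3, 7, 11, 22, 23 or 32 or WT animals 13, 14, 21 or 24). *Cited2* was also lost with the offsets for GC content and gene length, with library size alone as scaling, in limma-voom and with no filter on low counts. Without A226Y animals 7, 11, 22 or 32 or WT animals 13, 14, 21 or 24, the list held 1 gene called higher and 1 lower.

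Among the genes that work with the receptor, the share called was 6.67% of the chaperones, 17.6% of the coregulators and 11.1% of the genes of steroid supply and clearance, beside 14.3% of all tested genes. Of 15 chaperones and co-chaperones of its complex, 1 was called lower, *Fkbp4*, the co-chaperone that exchanges with *Fkbp5* when hormone binds (174 ± 20.2 CPM in A226Y and 209 ± 26.3 CPM in WT, log2 fold change −0.27, adjusted p = 0.0418 from edgeR). *Fkbp4* was called in 7 of the 18 fits with 1 mouse left out, those without A226Y animals 5, 7, 15, 22 or 29 or WT animals 6 or 33, and it was lost with an offset for GC content, with an offset for gene length, with library size alone as scaling and with no filter on low counts. The chaperones that hold the receptor in a state able to bind the hormone had log2 fold changes of 0.39 for *Hsp90aa1* (adjusted p = 0.16 in edgeR) and 0.06 for *Hsp90ab1* (adjusted p = 0.688 in edgeR). Of 17 coregulators tested, 2 were called higher and 1 lower, all by small amounts: the coactivator *Ncoa2* (0.22, adjusted p = 0.00866 from edgeR), the corepressor *Nrip1* (0.29, adjusted p = 0.0381 from edgeR) and the histone deacetylase *Hdac3* (−0.20, adjusted p = 0.015 from edgeR). *Ncoa2* and *Hdac3* were called with any 1 mouse left out, but *Hdac3* was lost with library size alone as scaling, where 5 coregulators were called higher and 0 lower by edgeR, and *Ncoa2* with the length offset. With library size alone 15.4% of all tested genes were called, and 68.0% of those called were higher, against 50.8% with TMM. *Nrip1* was lost with the GC and length offsets and without A226Y animals 3, 7, 11, 22 or 32 or WT animals 4, 13, 14 or 24. The number called higher rose to 5 without WT animal 6 or A226Y animal 23 and to 4 without A226Y animal 15, where 18.8%, 13.5% and 13.4% of all tested genes were called. Among 9 tested genes of steroid supply and clearance, 1 was called, *Akr1c6*, a hydroxysteroid dehydrogenase of the liver, which was lower in A226Y (514 ± 163 CPM) than in WT (837 ± 63.2 CPM), with a log2 fold change of −0.70 (adjusted p = 0.0154 from edgeR). All 10 A226Y mice (177 to 671 CPM) were below all 8 WT mice (714 to 900 CPM) for *Akr1c6*, a separation seen in 0.637% of all tested genes, and it was called with any 1 mouse left out. *Nr3c2*, the mineralocorticoid receptor, and *H6pd*, which supplies the cofactor of the *Hsd11b1* enzyme, had log2 fold changes of 0.12 and −0.13 (adjusted p = 0.655 and 0.46 in edgeR).

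Of the factors related to *Cebpb* and *Cebpd*, 1 of 4 was called, *Cebpe* (−0.66, adjusted p = 0.00995 from edgeR), at 2.99 CPM in A226Y and 4.76 CPM in WT. *Cebpa*, the main C/EBP factor of the hepatocyte, had 518 ± 86.4 CPM and 652 ± 130 CPM (−0.33, adjusted p = 0.0697 in edgeR), and *Cebpg* a log2 fold change of 0.07 (adjusted p = 0.655 in edgeR). Of 14 immediate-early genes, which respond within minutes to handling and stress, 0 were called by edgeR, DESeq2 or limma-voom and 2 had an unadjusted p-value under 0.05, and *Fos* and *Fosb* had log2 fold changes of −0.48 (adjusted p = 0.302) and −1.25 (adjusted p = 0.095 in edgeR). Of the 18 acute phase genes, which glucocorticoids and C/EBP factors co-induce, 1 was called (5.56%, beside 14.3% of all tested genes), *Saa4*, a constitutive serum amyloid A, which was lower in A226Y (−0.86, adjusted p = 0.00389 from edgeR). The inducible *Saa1* and *Saa2* had log2 fold changes of 2.24 and 3.21 that did not pass (adjusted p = 0.294 and 0.183 in edgeR), and A226Y animal 29 held 6102 and 7120 CPM of them, against group means of 627 and 721 CPM. These 2 directions rest on that animal, since the medians of *Saa1* and *Saa2* were 19.1 and 10.4 CPM in A226Y and 30.5 and 20.8 CPM in WT, and without animal 29 the log2 fold changes were −2.83 and −3.02. With both animals 29 and 33 left out, *Saa1* and *Saa2* were lower in A226Y (−2.60 and −2.84, adjusted p = 0.0113 and 0.00591 in edgeR). Without animal 29, 6 of the acute phase genes were called lower, and without both animals 29 and 33, 4 of them, with 2 of the immediate-early genes and 2 of the relatives of *Cebpb*. Calls over all tested genes rose in the same fits, to 19.2% without animal 29 and to 17.8% without both.

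Clock genes are given beside the targets because corticosterone has a daily rhythm and the time of sampling is not given in the sources used here. Of 15 tested, 1 was called higher and 2 lower (20%, beside 14.3% of all tested genes, 7.27% higher and 7.03% lower). *Clock* was higher, at 35.5 ± 2.61 CPM in A226Y and 23.2 ± 4.38 CPM in WT (log2 fold change 0.61, adjusted p = 0.000932 from edgeR), and *Bhlhe40*, a repressor of the clock, was lower (−0.37, adjusted p = 0.0347 from edgeR). *Clock* did not overlap between the genotypes, a separation seen in 0.637% of all tested genes, and was called with any 1 mouse left out. *Bhlhe40* was lost without A226Y animals 7, 11, 15, 23 or 32 or WT animals 13, 14, 24 or 33. With the surrogate variables 0 clock genes were called by edgeR. Without A226Y animal 29, 2 were called higher and 4 lower, where 19.2% of all tested genes were called. With library size alone as scaling, *Bhlhe40* was lost. The part of the clock genes in the differences of *Serpina6*, *Klf9* and *Sgk1* was not tested.

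**Figure D5:**
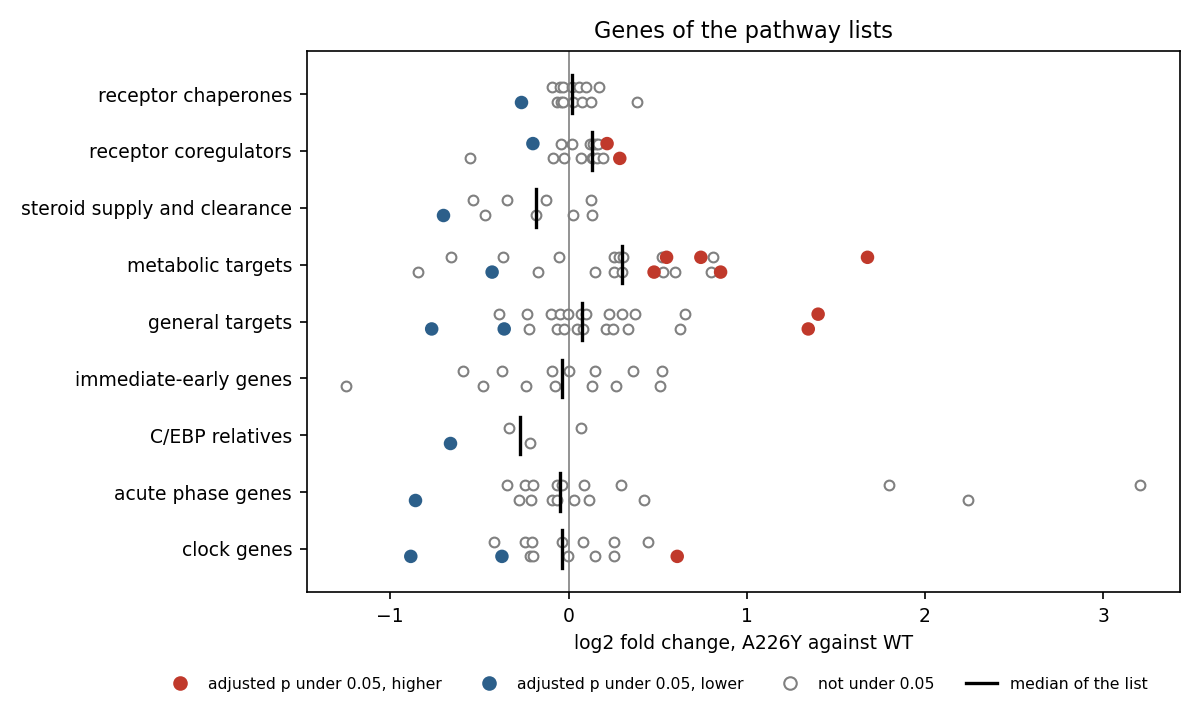
Log2 fold change of each tested gene in the 9 pathway lists (138 genes), with genes called higher in red, called lower in blue and the others open, and the median of each list as a black bar. The metabolic targets have the highest median, 0.30, and hold 5 of the 10 genes called higher.

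Markers of the cell types of the liver were read in the same fit, in which 14.3% of all tested genes were called. The share called was 22.2% of the hepatocyte markers, 12.5% of the Kupffer cell and macrophage markers and 37.5% of the stellate cell markers. Of 9 hepatocyte markers, 1 was called higher (*Cps1*, log2 fold change 0.55, adjusted p = 0.0137 from edgeR) and 1 lower (*Apoa2*, −0.31, adjusted p = 0.0481 from edgeR, called in 5 of the 18 fits, those without A226Y animals 5, 23 or 29 or WT animals 6 or 33, and lost with both offsets, RLE size factors, library size alone, limma-voom and no filter), and the summed level ran from 96997 to 173099 CPM in A226Y and from 119577 to 203945 CPM in WT. Of 8 Kupffer cell and macrophage markers, 1 was called lower, *Clec4f* (−0.65, adjusted p = 0.0261 from edgeR, lost without WT animal 14), while *Vsig4* had −0.49 (adjusted p = 0.065 in edgeR). The summed level of this list ran from 278 to 1083 CPM in A226Y (median 377 CPM) and from 416 to 841 CPM in WT (median 604 CPM), and 5 of the 8 were called lower without A226Y animal 29, 3 without A226Y animal 5 or WT animal 6, and 2 without WT animal 24. Over all tested genes the share called in these fits was 19.2%, 15.1%, 18.8% and 9.83%. Of 8 stellate cell markers, *Col1a1* and *Col3a1* were lower (−0.77 and −0.60, adjusted p = 0.0162 and 0.00516 from edgeR) and *Hgf* was higher (0.34, adjusted p = 0.0207 from edgeR, lost with the GC offset), with sums of 369 to 448 CPM in A226Y and 354 to 432 CPM in WT. The calls of *Cps1*, *Apoa2*, *Clec4f*, *Col1a1*, *Col3a1* and *Hgf* were lost with the surrogate variables. No marker of sinusoidal endothelial cells (8 tested), cholangiocytes (5), B and plasma cells (7), T and NK cells (7) or neutrophils and monocytes (6) was called by edgeR, DESeq2 or limma-voom with all mice and without the surrogate variables. An unadjusted p-value under 0.05 was reached by 1, 1, 0, 2 and 1 of them. With the surrogate variables 1 cholangiocyte marker was called higher, where 0.374% of all tested genes were called. Without A226Y animal 29, 1 marker of T and NK cells was called lower, where 19.2% of all tested genes were called. No marker listed was at 0 in all mice. The summed levels in A226Y and WT were 314 to 466 and 327 to 445 CPM for endothelial markers, 13.4 to 30.1 and 12.1 to 26.0 CPM for cholangiocyte markers, 54.1 to 289 and 53.6 to 739 CPM for B and plasma cell markers, 2.38 to 7.29 and 3.997 to 11.1 CPM for T and NK cell markers, and 3.12 to 52.6 and 3.61 to 21.8 CPM for neutrophil and monocyte markers. The part of the macrophage markers in the differences of the glucocorticoid genes was not tested.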

How the data were processed

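The 9 genes and the gene lists were chosen with earlier results of these data known. The authors deposited whole-number counts per Ensembl gene and mouse, without normalization. The methods name RSEM with an Ensembl annotation, whereas the submitters' processing notes name fastp, STAR, featureCounts and GRCm38. The counting step and its use of strand are therefore not settled. Of the 22524 identifiers, 22291 were found in GENCODE M21 (GRCm38), which gave symbols and coordinates. A gene was tested if 50% or more of either genotype's mice had 10 counts or more (13353 genes), with edgeR 4.0.16 in R 4.3.3 (TMM scaling, quasi-likelihood test, no covariates, Benjamini-Hochberg adjustment, common biological coefficient of variation 0.194). At 23850565 counts or more per mouse, the 9 genes held between 545 and 36025 counts in each library, and the error is mostly the spread between mice. No 2 libraries of a genotype agreed within sampling noise (chi-square per degree of freedom of at least 19.2). Correlations and exact tests used log2 CPM with a prior count of 2 (NumPy 2.4.6). Named genes are the 9 genes, *Rps2*, up to 4 called genes per list by smallest adjusted p (mean of at least 1 CPM), the first 2 tested genes of lists with fewer than 2 calls, and the 3 genes most alike to *Nr3c1*, *Fkbp5* and *Tsc22d3*. Alternatives were other scalings and filters, a likelihood ratio test, a robust fit, DESeq2 1.42.0, limma-voom 3.58.1, 4 surrogate variables (sva 3.50.0), length and GC offsets (pseudocount 0.5, lowess span 0.3, 3 iterations), a prior count of 0.5 and leaving out each mouse. After seeing the data, leaving out A226Y animal 29 and WT animal 33, and the longest transcript as length, were added. Scripts were tested on simulated counts. The values of a single gene of the lists are not reported here.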

Additional observations from a re-analysis of the deposited data

Results flagged for a closer look

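Of 18 groups (9 genes in 2 genotypes), 1 held a mouse far from the others of its group: *Cebpb* in A226Y animal 29, at 526.0 CPM, where the next highest A226Y mouse had 356 CPM. The gap was larger, relative to the range of the group, than Dixon's criterion at 95% allows. Chance flags about 1 in 20 such groups. The same animal had the lowest *Serpina6*, *Hsd11b1* and *Nr3c1* and the highest *Dusp1* and *Fkbp5* of the A226Y mice.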

How the results depend on the processing

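Over 15 alternatives and 18 fits with 1 mouse left out, *Serpina6*, *Klf9* and *Sgk1* remained called except with the surrogate variables, where the log2 fold changes were −0.68 (adjusted p = 0.0848 in edgeR), 0.21 (0.558) and 0.37 (0.368). In that fit *Nr3c1*, *Fkbp5* and *Dusp1* changed sign, to 0.02, −0.08 and −0.07, 50 genes were called in all, 0 of the 9 genes among them, and 0 genes of the pathway lists. *Dusp1* was −0.02 with both libraries that stand apart left out, and between −0.0049 and 0.28 with 1 mouse left out. With 1 mouse left out the genes called numbered between 1255 (without WT animal 14) and 2560. With library size alone, 68.0% of the genes called were higher, against 50.8% with TMM, and in the exact permutation test the difference in log2 CPM of *Hsd11b1* was −0.22 (p = 0.0958) and that of *Fkbp5* 0.44 (p = 0.0374). The count of pairs that varied together was 0 with both libraries that stand apart left out, 0 without A226Y animal 29 and 6 without WT animal 33, where *Fkbp5* with *Klf9* was lost (permutation test, adjusted p = 0.0582) and *Klf9* with *Sgk1* was gained (r = 0.625, adjusted p = 0.0482). DESeq2 called 10 metabolic targets where edgeR called 6, 4 acute phase genes against 1, 4 hepatocyte markers against 2, and 2 against 1 among the C/EBP relatives, the genes of steroid supply and the macrophage markers. Its calls over all tested genes were also more, at 18.1% against 14.3% with edgeR. Of 410 values recomputed, 394 kept their direction and side of the threshold, moved within their error or, for counts, stayed within 1.5 times the count reported, which does not say that they are of the same genes or pairs. The cause of the changes with surrogate variables was not tested. No paired analysis was possible because nothing in the labels matches A226Y mice to WT mice.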
